A study of Arabidopsis thaliana with 4 samples.

Results

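The 10 genes described here encode xyloglucan endotransglucosylase/hydrolases (XTHs) of Arabidopsis thaliana: XTH4, XTH5, XTH6, XTH7, XTH8, XTH9, XTH15, TCH4 (also called XTH22), XTH23 and XTH24. They were taken by gene identifier, and the choice was made with earlier results of these data known. They are 10 of the 33602 genes measured and 10 of the 33 genes of the XTH family. RNA was measured in guard cells sorted from protoplasts of the aerial tissue of seedlings at 12 days post germination (dpg), in 2 groups of 2 libraries. The FAMA-LGK group carries the fama-1 allele of FAMA, a transcription factor gene needed for guard cell differentiation, together with a FAMA-LGK transgene under the FAMA promoter. FAMA-LGK is a form of FAMA altered in the motif that binds the retinoblastoma-related protein. The other group is wild type (WT) of the same age. The series calls guard cells of the first group reprogrammed and those of the second fully differentiated, and the comparison addresses the transcripts that set them apart. Not given in the sources used here were the sort marker and the number of transgenic lines. The labels do not say whether the libraries of a group are separate plantings, and the p-values cover the spread between these libraries alone, which may be technical.

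XTH enzymes act in the cell wall on xyloglucan, a branched glucan that coats and links cellulose microfibrils. They cut a xyloglucan chain and join the new end to another chain or, in a few family members, to water, and so can loosen, rebuild or strengthen the wall. Guard cells have thick, unevenly built walls that must stretch and recoil each time a pore opens and closes. TCH4 was found as a gene induced by touch, and it also responds to brassinosteroid, heat and darkness.

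Reads assigned to genes were estimated from the deposited TPM values (transcript abundance, a read count scaled for gene length and to a fixed total per library). They numbered about 17256395 and 17014807 in FAMA-LGK and about 17427647 and 19614028 in WT. The correlation of log2(TPM + 1) across genes was 0.975 for the FAMA-LGK pair, 0.983 for the WT pair and 0.948 to 0.953 for pairs across groups. FAMA itself measured 94.3 and 81.2 TPM in FAMA-LGK and 66.1 and 65.6 TPM in WT (log2 fold change 0.40, limma adjusted p = 0.224), and mutant and transgene reads cannot be told apart in it. The guard cell label was checked with 11 marker genes, all detected: their summed TPM was 2937 and 2579 in FAMA-LGK, against 18012 and 13901 in WT. Most of each sum was TGG1, at 2652 and 2313 TPM in FAMA-LGK and 16420 and 12487 TPM in WT. Of the 11 markers, 1 was called higher (MYB60), 7 were called lower and 3 were not called. Over all tested genes 6.45% were called higher and 6.14% lower. Markers of the early stomatal lineage summed to 118.4 and 148.4 TPM in FAMA-LGK and 54.4 and 52.5 TPM in WT. Pavement cell and epidermis markers summed to 680.4 and 637.9 TPM in FAMA-LGK and 285.2 and 223.8 TPM in WT. In these bulk samples, fewer cells of a type and less RNA per cell cannot be told apart.

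Of the 10 genes, TCH4 was higher and XTH23 was lower in FAMA-LGK guard cells. XTH24, XTH4 and XTH9 were measured in every library without passing the test. XTH5, XTH6, XTH7, XTH8 and XTH15 stayed below a mean of 1 TPM over the 4 libraries and were not tested. The test was limma on log2(TPM + 1), with Benjamini-Hochberg adjustment over all 15143 genes above that minimum and a threshold of 0.05. On simulated data, in which every gene had the same spread beyond counting error, it called more unchanged genes than that threshold allows. An adjusted p printed here may therefore be less strict than its value states, and how far the simulation carries over to the real libraries was not tested. The test called 2 of the 5 tested XTH genes, 1 in each direction, against 12.6% of all tested genes (6.45% higher and 6.14% lower). The median log2 fold change, FAMA-LGK minus WT, was 0.41 over the 5 XTH genes and 0.06 over all tested genes. Among all calls 51.2% were higher, a share that was 67.5% once ribosomal RNA and organelle genes were removed, a setting that moved the median of all tested genes to 0.23.

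**Figure D1:**
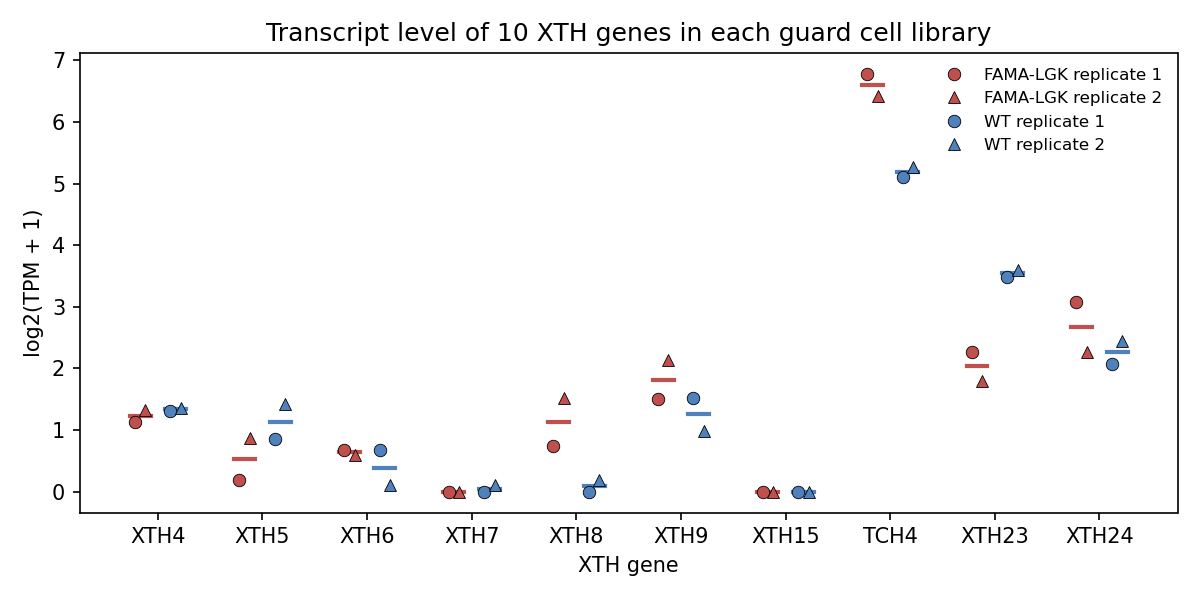
Transcript level of each of the 10 XTH genes as log2(TPM + 1) in the 2 FAMA-LGK libraries (red) and the 2 WT libraries (blue), with bars at the group means. TCH4 lies highest in all 4 libraries and is higher in both FAMA-LGK libraries, XTH23 is lower in both, and XTH15 is listed at 0 throughout.

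TCH4 (AT5G57560) measured 109.0 and 84.6 TPM in the FAMA-LGK libraries, against 33.6 and 37.7 TPM in the WT libraries. Both FAMA-LGK values were above both WT values, and the 2 FAMA-LGK libraries lay further apart from each other than the 2 WT libraries did. The means were 96.8 ± 17.2 TPM in FAMA-LGK and 35.7 ± 2.87 TPM in WT (SD, n = 2 each), a ratio of 2.71. The log2 fold change was 1.41 (SE 0.22, 95% interval 0.92 to 1.89, limma adjusted p = 0.00297). Of all tested genes, 3.35% had a higher fold change than TCH4. In level, TCH4 exceeded 98.2% and 97.2% of the genes in the table in the FAMA-LGK libraries and 93.0% and 94.1% in the WT libraries. The TPM values correspond to 1213 and 945 recovered reads in FAMA-LGK and to 381 and 485 in WT.

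XTH23 (AT4G25810), also known as XTR6, moved the other way. It measured 3.82 and 2.48 TPM in the FAMA-LGK libraries and 10.2 and 11.1 TPM in the WT libraries, with no overlap between the groups. The means were 3.15 ± 0.948 TPM in FAMA-LGK and 10.7 ± 0.656 TPM in WT (SD, n = 2 each), so the WT mean was 3.39 times the FAMA-LGK mean. The log2 fold change was -1.51 (SE 0.30, 95% interval -2.19 to -0.83, limma adjusted p = 0.0114), and 2.86% of all tested genes had a lower one. Its values rest on 43 and 28 recovered reads in FAMA-LGK and on 117 and 145 in WT.

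Neither call held with 1 WT library left out. With WT replicate 1 omitted, the limma adjusted p was 0.146 for TCH4 and 0.198 for XTH23, and with WT replicate 2 omitted it was 0.136 for TCH4 and 0.240 for XTH23. In these fits limma called 0 genes in the whole table, with 2675 and 2365 at an unadjusted p under 0.05, so every gene named here as called lost its call in them. With no filter on low values TCH4 kept its call (adjusted p = 0.0408), and XTH23 did not (adjusted p = 0.0768). Relative to the median of all tested genes, and after ribosomal RNA and organelle genes were taken out, the log2 difference was 1.38 for TCH4 and -1.70 for XTH23.

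**Figure D2:**
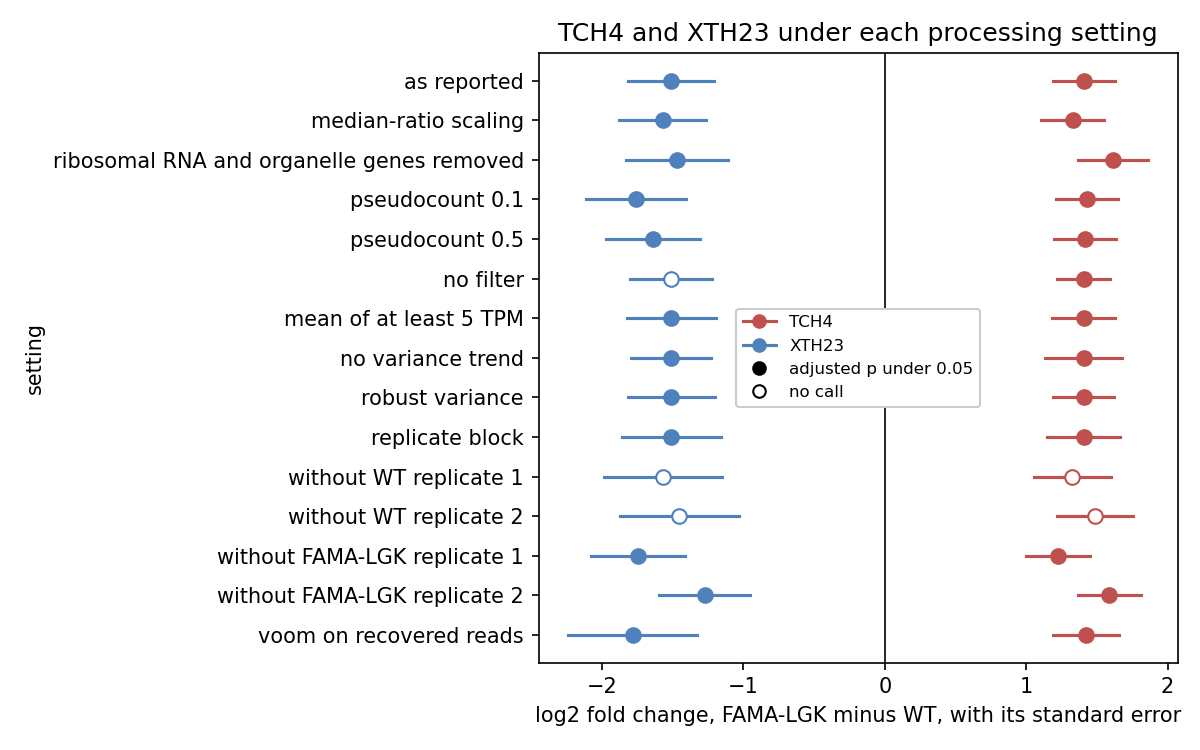
Log2 fold change of TCH4 (red) and XTH23 (blue), FAMA-LGK minus WT, with its standard error, under each processing setting (rows), with filled points where the adjusted p is under 0.05. TCH4 lies between 1.23 and 1.61 and XTH23 between -1.78 and -1.27, and the open points are the fits without a WT library and, for XTH23, the fit with no filter.

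The transcripts of TCH4 and XTH23 are each other's closest match within the family in the reference annotation, at 80.8% identity over 52.9% of the TCH4 length. How reads that match several places were counted is not given in the sources used here, so reads shared by the pair could have been split or dropped. The ratio of TCH4 to XTH23 TPM was 28.6 and 34.2 in the FAMA-LGK libraries and 3.30 and 3.39 in the WT libraries. Neither gene overlaps another annotated gene on the opposite strand. The nearest family neighbour of TCH4 in the genome, XTH25, had 0 and 0.451 TPM in FAMA-LGK and 0 TPM in both WT libraries, and XTH14, the neighbour of XTH23, was listed at 0 in all 4.

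XTH24 (AT4G30270), first isolated as the meristem gene MERI5B, also has TCH4 as its closest transcript in the family (78.2% identity over 47.4% of its length). It measured 7.47 and 3.80 TPM in the FAMA-LGK libraries and 3.20 and 4.47 TPM in the WT libraries. The groups overlapped, because FAMA-LGK replicate 2 lay below WT replicate 2. The log2 fold change was 0.41 (SE 0.36, 95% interval -0.40 to 1.23, limma adjusted p = 0.505), an interval that includes both no change and a doubling on the log2(TPM + 1) scale. The value moved most with the FAMA-LGK libraries: the log2 fold change was 0.0025 without FAMA-LGK replicate 1 and 0.82 without FAMA-LGK replicate 2. It was 0.22 without WT replicate 1 and 0.60 without WT replicate 2, and none of these passed the test.

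XTH4 and XTH9 have been described in growing stems and in cells that form wood, and XTH9 also in shoot apices. XTH9 (AT4G03210) measured 1.83 and 3.38 TPM in FAMA-LGK and 1.88 and 0.979 TPM in WT. FAMA-LGK replicate 2 was the highest library and WT replicate 2 the lowest, while replicate 1 of each group lay close together. Its log2 fold change was 0.56 (SE 0.41, 95% interval -0.35 to 1.47, limma adjusted p = 0.411). Leaving out 1 library moved it to 0.88 (without FAMA-LGK replicate 1), 0.24 (without FAMA-LGK replicate 2), 0.83 (without WT replicate 1) or 0.29 (without WT replicate 2), and none passed the test. XTH4 (AT2G06850) measured 1.19 and 1.50 TPM in FAMA-LGK and 1.48 and 1.57 TPM in WT, with all 4 libraries close together. Its log2 fold change was -0.11 (SE 0.38, 95% interval -0.97 to 0.75, limma adjusted p = 0.886), and the sign turned to 0.0012 with ribosomal RNA and organelle genes removed. These values rest on 13 to 39 reads a library for XTH9 and 15 to 23 for XTH4. At this depth and spread, the interval of XTH9 includes a difference of 1 log2 unit, and that of XTH4 stops just short of it on the lower side.

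**Figure D3:**
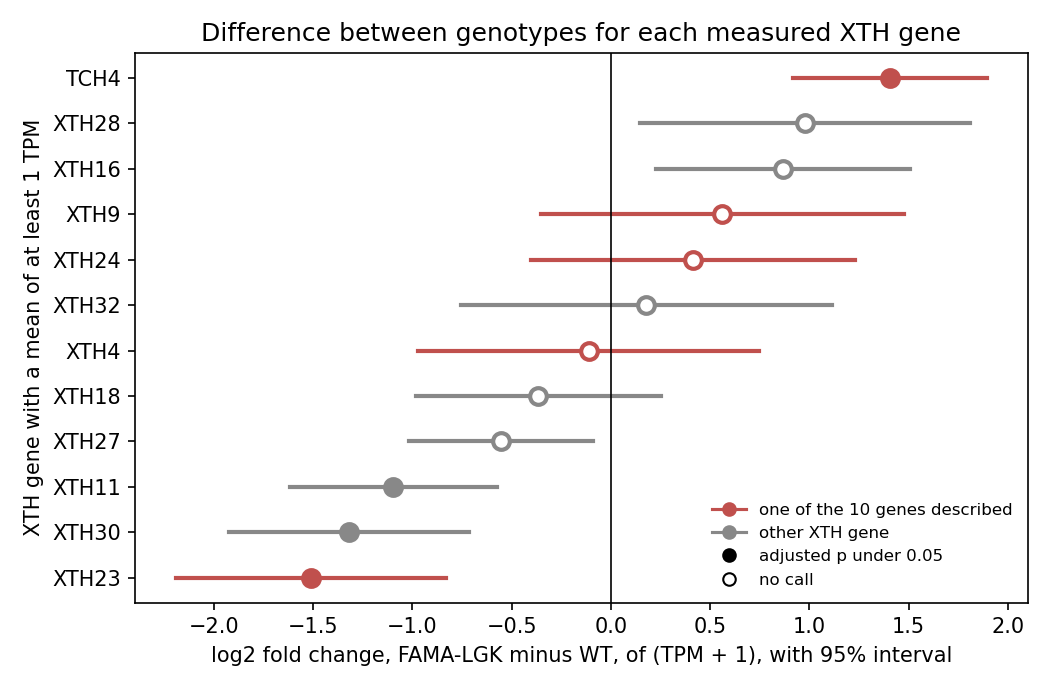
Log2 fold change, FAMA-LGK minus WT, with its 95% interval for the 12 XTH genes whose mean reached 1 TPM, the genes described here in red and other family members in grey, filled where the adjusted p is under 0.05. TCH4 at 1.41 and XTH23 at -1.51 are the ends of the family's range, and XTH30 and XTH11 are the other filled points.

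Among the members below the minimum, XTH8 (AT1G11545) separated the groups. It measured 0.678 and 1.86 TPM in FAMA-LGK and 0 and 0.147 TPM in WT. Its recovered reads were 8 and 22 in FAMA-LGK and 0 and 2 in WT. The summed reads, 30 against 2, give a depth-corrected ratio of 16.3 with an exact 95% interval of 4.13 to 140.6. That interval pools the libraries of a group, and covers counting error and not the spread between libraries. It was computed for XTH8 alone and is not a test of the genotypes. With no filter on low values, the log2 fold change of XTH8 was 1.03 (SE 0.31) and did not pass the test (limma adjusted p = 0.169). XTH8 and TCH4 were thus the members whose 2 FAMA-LGK values both exceeded both WT values, XTH23 was the member with the reverse, and the groups of the other 7 overlapped. Of the 5 tested members 2 did not overlap, against 57.3% of all tested genes (31.6% with FAMA-LGK above and 25.7% with FAMA-LGK below). No such share was computed for genes below the minimum, so the separation of XTH8 has no background beside it.

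XTH5 (AT5G13870), the closest relative of XTH4 among the family's transcripts, measured 0.138 and 0.824 TPM in FAMA-LGK and 0.813 and 1.67 TPM in WT, from 2 and 12 reads in FAMA-LGK and 12 and 28 in WT. The lowest WT library lay just below the highest FAMA-LGK library, so the groups overlapped. XTH6 (AT5G65730) measured 0.602 and 0.514 TPM in FAMA-LGK and 0.592 and 0.0744 TPM in WT, from at most 7 reads a library, and 3 of its 4 values were nearly equal. XTH7 (AT4G37800), whose closest transcript is that of XTH6, was listed at 0 in both FAMA-LGK libraries and at 0 and 0.0730 TPM in WT, the last from 1 read. XTH15 (AT4G14130), known as XTR7 and as a gene induced in shade, was listed at 0 in all 4 libraries. Counts of 0 allow up to 0.206 to 0.238 TPM (3 reads a library) for XTH15 and at most 0.253 TPM for XTH7. XTH15 is the one member that overlaps a gene on the opposite strand (AT4G14120, over 382 bases), and whether the counting used strand is not given in the sources used here.

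**Figure D4:**
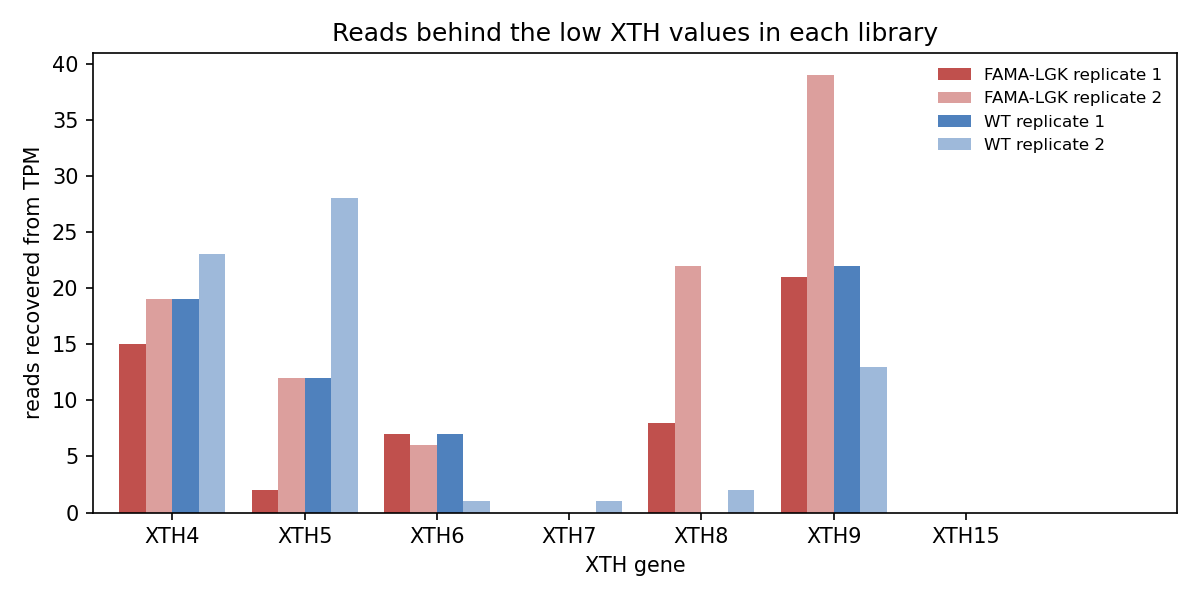
Reads recovered from the TPM values for the 7 XTH genes at or under 4 TPM in every library, with FAMA-LGK libraries in red and WT libraries in blue. No bar exceeds 39 reads, XTH8 has 8 and 22 reads in FAMA-LGK and 0 and 2 in WT, and XTH7 and XTH15 hold 1 and 0 reads in all.

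TPM values are scaled for gene length, so levels can be ordered between genes within a library. In FAMA-LGK the order of mean TPM was TCH4 (96.8), XTH24 (5.64), XTH23 (3.15), XTH9 (2.61), XTH4 (1.34), XTH8 (1.27), XTH6 (0.558) and XTH5 (0.481), with XTH7 and XTH15 at 0. Within that order the values of TCH4 did not overlap those of XTH24, nor XTH9 those of XTH4, XTH8 those of XTH6, or XTH5 the members at 0. Each other pair of neighbours had overlapping values. Apart from TCH4, these gaps were a few reads wide and do not settle the order. The lowest XTH9 library had 21 reads and the highest XTH4 library 19, the lowest XTH8 library 8 and the highest XTH6 library 7. XTH5 had 2 reads in FAMA-LGK replicate 1, where a count of 0 allows up to 3. In WT the order was TCH4 (35.7), XTH23 (10.7), XTH24 (3.83), XTH4 (1.52), XTH9 (1.43), XTH5 (1.24), XTH6 (0.333), XTH8 (0.0733), XTH7 (0.0365) and XTH15 (0). There TCH4, XTH23 and XTH24 were each clear of the next. XTH5 also did not overlap XTH6, from 12 and 28 reads against 7 and 1, and the remaining neighbours overlapped. XTH23 was thus second in WT in both libraries, with the lead over XTH24 clear, and overlapped XTH24 and XTH9 across the FAMA-LGK libraries. Within each FAMA-LGK library XTH24 exceeded XTH23 (7.47 against 3.82 TPM, and 3.80 against 2.48 TPM). The order of XTH23 and XTH9 differed between these libraries.

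The summed level of the 10 genes was 124.7 and 98.9 TPM in FAMA-LGK and 51.8 and 57.8 TPM in WT. TCH4 supplied 87.4% and 85.5% of it in FAMA-LGK and 64.9% and 65.2% in WT. XTH23 supplied 3.06% and 2.50% in FAMA-LGK and 19.7% and 19.3% in WT. The remaining 8 genes together held 11.9 TPM in each FAMA-LGK library and 7.96 and 8.98 TPM in the WT libraries. The whole family of 33 genes summed to 219.8 and 206.9 TPM in FAMA-LGK and to 225.6 and 209.5 TPM in WT, ranges that overlap. Within that total the 10 genes held 56.7% and 47.8% in FAMA-LGK and 23.0% and 27.6% in WT, and TCH4 alone held 49.6% and 40.9% in FAMA-LGK and 14.9% and 18.0% in WT. These shares and sums were not tested, and the sums were not corrected for ribosomal RNA and organelle content, which differed between libraries. Nuclear ribosomal RNA genes held 33.0% and 22.3% of all TPM in FAMA-LGK and 24.2% and 27.1% in WT. Organelle genes held 29.8% and 30.8% in FAMA-LGK and 27.8% and 25.3% in WT.

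**Figure D5:**
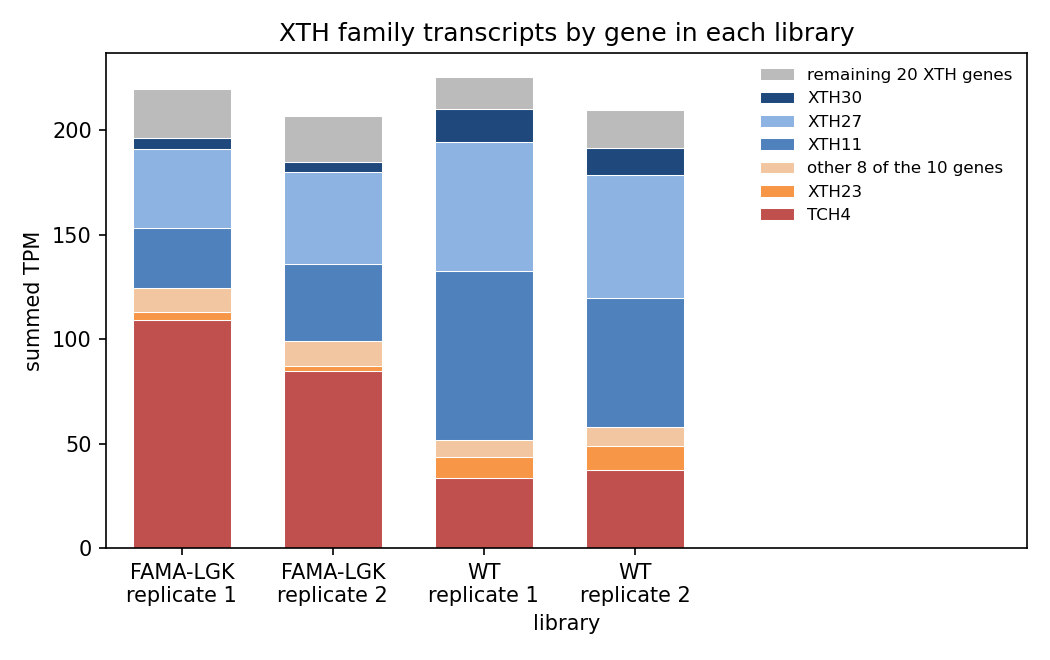
Summed TPM of the 33 XTH genes in each library, stacked by gene, with TCH4 at the bottom and the remaining 20 genes pooled in grey at the top. The column heights overlap between the groups at 206.9 to 225.6 TPM, while the TCH4 segment is 109.0 and 84.6 TPM in FAMA-LGK and 33.6 and 37.7 TPM in WT.

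The other 23 XTH genes included 7 above the minimum, of which 0 were called higher and 2 lower by limma, with 5 not called and a median log2 fold change of -0.37. Over all tested genes 6.45% were called higher and 6.14% lower. XTH16 and XTH28 had positive log2 fold changes with an unadjusted p under 0.05, of 0.87 (adjusted p = 0.0781) and 0.98 (adjusted p = 0.119). Voom on recovered reads called 0 of the 7 higher, while XTH16 was called higher with ribosomal RNA and organelle genes taken out (adjusted p = 0.0383) and with a replicate block (0.0467). The block fit took each gene's spread from the trend over all genes and not from its own values. XTH30 measured 5.25 and 4.79 TPM in FAMA-LGK and 15.5 and 12.7 TPM in WT (log2 fold change -1.32, SE 0.27, limma adjusted p = 0.0123). XTH11, the highest family member in WT, measured 28.6 and 37.0 TPM in FAMA-LGK and 80.7 and 62.0 TPM in WT (log2 fold change -1.10, SE 0.23, limma adjusted p = 0.0145). With no filter on low values both calls were lost (adjusted p = 0.0658 for XTH30 and 0.0803 for XTH11). The XTH11 call was also lost when FAMA-LGK replicate 1 was omitted (adjusted p = 0.0530) or when the fit had no variance trend (adjusted p = 0.0650). XTH27, known from work on the tracheary elements of leaves, measured 37.9 and 44.0 TPM in FAMA-LGK and 61.9 and 58.9 TPM in WT without passing the test (log2 fold change -0.55, adjusted p = 0.112). Over the whole family, 12 of 33 genes were tested, with 1 call in the higher direction, 3 in the lower, 8 without a call and a median of 0.03, and 10 genes were listed at 0 in all 4 libraries.

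Genes with the most similar values were sought among all tested genes as the 3 with the smallest Euclidean distance to TCH4 or XTH23 over the 4 values of log2(TPM + 1). For TCH4 these were GLP5 (a germin-like protein gene, distance 0.25), STP4 (a monosaccharide transporter gene, 0.34) and AT5G22270 (0.35). GLP5 measured 105.6 and 76.5 TPM in FAMA-LGK and 38.3 and 39.6 TPM in WT. For XTH23 they were WRKY23 (a transcription factor gene, 0.33), AT1G30757 (0.35) and AT5G19580 (0.36). WRKY23 measured 3.89 and 2.14 TPM in FAMA-LGK and 11.4 and 9.19 TPM in WT. With 4 libraries in 2 groups, such likeness describes level and group difference together.

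Other gene families make and trim the xyloglucan on which XTH enzymes act. Of 15 genes of xyloglucan synthesis 11 were tested and 1 was called, in the lower direction, a share near the 12.6% of all tested genes, with a median log2 fold change of 0.12. XXT5, named after its values were seen, was the other gene with an unadjusted p under 0.05 (log2 fold change 0.87, limma adjusted p = 0.0922). It was called with ribosomal RNA and organelle genes taken out (0.0483) and with a replicate block (0.0274), a fit that did not use the gene's own spread. The called gene was XXT1, a xylosyltransferase that adds the side chains of xyloglucan, at 14.0 ± 0.152 TPM in FAMA-LGK and 27.4 ± 2.82 TPM in WT (SD, n = 2 each; log2 fold change -0.92, SE 0.23, limma adjusted p = 0.0278). Its call was lost without any 1 of the 4 libraries (adjusted p from 0.0544 to 0.248). It was also lost with ribosomal RNA and organelle genes taken out (0.0505), with no filter (0.0764) and with no variance trend (0.0765). All 5 genes for enzymes that trim xyloglucan were tested and 0 were called, or passed an unadjusted p of 0.05, with a median of 0.17.

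Of 8 genes of primary wall cellulose synthesis 6 were tested and 1 was called, in the higher direction, against 6.45% of all tested genes. The median log2 fold change of the 6 was 0.57. CESA1, a catalytic subunit of the primary wall complex, averaged 12.5 ± 0.933 TPM in FAMA-LGK and 5.64 ± 1.50 TPM in WT (SD, n = 2 each; log2 fold change 1.04, SE 0.28, limma adjusted p = 0.0413), a call lost without any 1 library (adjusted p from 0.0822 to 0.331), with no filter (0.125) and with no variance trend (0.0717). Of 18 alpha-expansin genes, which encode proteins that loosen walls without cutting them, 9 were tested, with a median of 0.51. Among the 9, 1 was called higher and 1 lower, against 6.45% and 6.14% of all tested genes. EXPA10 averaged 4.69 ± 0.351 TPM in FAMA-LGK and 0.681 ± 0.296 TPM in WT (log2 fold change 1.77, limma adjusted p = 0.0131), and it reached the minimum of 1 TPM through its FAMA-LGK values. EXPA16 averaged 1.47 ± 0.364 TPM in FAMA-LGK and 6.28 ± 0.564 TPM in WT (log2 fold change -1.56, limma adjusted p = 0.0149), and its adjusted p was 0.0521 without FAMA-LGK replicate 1. With no filter both calls were lost (adjusted p = 0.0774 for EXPA10 and 0.0862 for EXPA16).

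TCH4 belongs to the TCH genes, which were found together as genes induced by touch. Of 12 genes known to respond to touch or wounding, all tested, limma called 6 higher and 1 lower and left 5 without a call, with a median log2 fold change of 0.88. The shares over all tested genes were 6.45% higher and 6.14% lower. This list was chosen with earlier results of these data known. The jasmonate synthesis genes LOX3 and AOS were higher by 1.99 and 1.57 (limma adjusted p = 3.0e-04 and 0.00265), as was the transcription factor gene WRKY40 by 1.59 (adjusted p = 0.00562). With no filter LOX3 and AOS kept their calls (0.0141 and 0.0344) and WRKY40 did not (0.0754). JAZ1, which encodes a jasmonate repressor, was lower (log2 fold change -1.35, limma adjusted p = 0.0172), a call lost without FAMA-LGK replicate 1 (0.0661), with no filter (0.122) and with no variance trend (0.0505). The other TCH genes were looked at after their values had been seen. CML12 (TCH3), a calmodulin-like gene, measured 193.0 and 177.5 TPM in FAMA-LGK and 84.0 and 84.5 TPM in WT (log2 fold change 1.13, limma adjusted p = 0.00584). CML24 (TCH2) measured 20.5 and 22.6 TPM in FAMA-LGK and 10.3 and 9.53 TPM in WT (log2 fold change 1.04, limma adjusted p = 0.0194), a call lost without FAMA-LGK replicate 2 (0.0619), with no filter (0.0664) and with no variance trend (0.0543). CAM2 (TCH1), a calmodulin gene, measured 20.5 and 15.5 TPM in FAMA-LGK and 11.0 and 9.86 TPM in WT and did not pass the test (log2 fold change 0.72, adjusted p = 0.0947; 0.0476 with ribosomal RNA and organelle genes taken out). The remaining uncalled genes of the list went both ways. ZAT10 and BAP1 had log2 fold changes of -0.74 and -0.68 (limma adjusted p = 0.0550 and 0.176). JAZ10 had 0.65 (limma adjusted p = 0.0947) and ZAT12 had -0.02 (limma adjusted p = 0.977). The part of a touch or wound response in the TCH4 difference was not tested.

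The XTH differences stood beside differences in the cell type markers. Of 3 early lineage markers tested among 5, all 3 were higher in FAMA-LGK, and of 8 pavement cell and epidermis markers 5 were higher and 3 were not called. Over all tested genes 6.45% were called higher. Mesophyll markers summed to 481.2 and 571.2 TPM in FAMA-LGK and 618.2 and 661.3 TPM in WT. Of these 9 markers 1 was called, lower, against 6.14% of all tested genes called lower. The 6 vascular markers were all below the minimum, at a summed 1.02 and 2.86 TPM in FAMA-LGK and 1.14 and 1.87 TPM in WT, with CESA8 at 0 in every library. The 4 trichome markers summed to 0.600 and 0.874 TPM in FAMA-LGK and 1.20 and 0.511 TPM in WT. The part of epidermal or early lineage transcripts in the TCH4 and XTH23 differences was not tested.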

How the data were processed

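RNA was measured in 4 libraries, 2 of FAMA-LGK and 2 of WT guard cells. Reads were counted per gene with HTSeq and the authors deposited TPM values, per the labels. The submitters' processing notes name CASAVA 1.8.2, Bowtie2, HTSeq and the TAIR10 build. Not given in the sources used here were read length, strandedness, gene lengths and the treatment of multiply matching reads.

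The test was limma 3.58.1 (R 4.3.3; eBayes with a trend, two-sided) on log2(TPM + 1), for genes whose mean reached 1 TPM. Fold changes are on this scale, which understates low genes. An exact permutation test of 2 against 2 cannot go below p = 0.333 and was not used. The fit was tested on simulated data with the same spread beyond counting error for every gene. There it gave every called changed gene the right sign and called more unchanged genes than the threshold allows. Whole reads were recovered from the steps in the TPM values for 19227 of 19262 genes with at least 3 values above 0 (99.8%, within 0.001 reads), against 3.0% of 2000 genes with 1 sample shuffled. They are known up to a whole multiple, set here by the exon length of the TAIR10.1 annotation, so read numbers are approximate and intervals cover counting error only. Voom on these reads was an alternative chosen after seeing the data, and it called 1988 genes. The TAIR10.1 annotation matched 32835 of the 33602 identifiers; its name differs from the authors' build, so no coordinates are given. Transcripts were compared with BLAST 2.17.0. Tables and figures used Python 3.11.15, numpy 2.4.6, pandas 2.3.3 and matplotlib 3.10.9.

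All 10 XTH genes are named; of other lists at most 4 called genes with the largest fold changes, and further names are given as such. The members and lists were chosen with earlier results of these data known. Whether replicate numbers pair the samples is not stated in the labels; deviations of same-numbered samples correlated at 0.0782 across genes, and the samples were treated as unpaired.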

Additional observations from a re-analysis of the deposited data

How the results depend on the processing

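TCH4 kept its direction under every setting run, with a log2 fold change from 1.23 to 1.61, and XTH23 from -1.78 to -1.27. The whole table had 1907 genes called, and 511 with no filter on low values, where 1 of the XTH genes described was called, against 2 with the filter. Leaving out 1 library gave 0 to 1685 genes and 0 to 2 XTH genes called. Without FAMA-LGK replicate 2 the calls split into 611 higher and 1074 lower. With median-ratio scaling 2275 genes were called, 44.9% of them higher. The sign turned for XTH4 after removal of ribosomal RNA and organelle genes (0.0012). It also turned for XTH32 with 1 library left out (-0.22 to 0.57, against 0.18 with all libraries). Neither passed the test. XTH16 was called after that removal (adjusted p = 0.0383), and XTH27 with median-ratio scaling (0.0396). With the replicate number as a block, limma called 2844 genes and the same 2 XTH genes (adjusted p = 1.7e-06 for TCH4 and 2.6e-04 for XTH23), and also XTH16 (0.0467). That fit took each gene's spread wholly from the trend over all genes. Its p-values therefore do not measure a gene's own spread between libraries. The samples share a number and are not known to be paired. The cause of these changes was not tested. With 2 libraries a group, the members other than TCH4, XTH23 and XTH24 rest on at most 39 reads a library, which limits what differences could be resolved.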
